A study of Mus musculus with 6 samples.

Results

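Vegfa, Slc2a1, Pdk1, Ldha, Pgk1, Bnip3, Ankrd37, Egln3 and Adm are genes whose transcripts accumulate when cells lack oxygen, and their RNA was compared here between Lmx1b conditional knockout (cKO) and control midbrains. They were chosen by name, as hypoxia-inducible genes, and are 9 of the 26852 genes in the deposited table, in which all 9 were found through the GRCm38 annotation. RNA of dissected midbrains at E14.5 (E for embryonic day) was sequenced in 3 libraries per genotype, each from 2 pooled embryos. The cKO embryos were Lmx1b fl/fl;Pitx3-Cre and the controls Lmx1b wt/wt;Pitx3-Cre, all on a C57Bl/6 background and taken from 4 litters. Both groups therefore carried Pitx3-Cre, and Cre acts only in cells that express Pitx3, the dopamine neurons of this region, so that the other cells of the dissection kept Lmx1b, the homeobox gene that these neurons need.

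When oxygen is ample, prolyl hydroxylases of the Egln family mark the α subunits of the hypoxia-inducible factors (HIF), and the Vhl ubiquitin ligase then directs them to degradation. When oxygen is scarce the α subunits, Hif1a and Epas1, persist, pair with Arnt or Arnt2 and bind a short DNA element with the core ACGTG or GCGTG near their target genes. The targets shift cells from respiration to glycolysis, remove mitochondria, restrain the pathway itself and attract blood vessels, and in the embryonic brain such genes are also read at a basal level that depends on cell type and on vascular growth.

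To show the element through which HIF is known to act, 60 bases are given from the promoter of each member that holds a core in the 250 bases upstream of its outermost start (RefSeq, GRCm38.p6). In GENCODE, used for the gene positions below, this start lies well inside the gene for Ldha and Ankrd37 and just inside it for Slc2a1 and Bnip3. All sequences are written 5′ to 3′ on the strand of the gene, with each match to ACGTG or GCGTG on either strand in capitals, so that CACGT and CACGC are the same cores read from the other strand.
Slc2a1, chr4:119108669-119108728 (+): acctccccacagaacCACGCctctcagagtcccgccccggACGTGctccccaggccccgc
Pgk1, chrX:106186932-106186991 (+): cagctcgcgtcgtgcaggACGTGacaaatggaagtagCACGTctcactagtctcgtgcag
Ldha, chr7:46845736-46845795 (+): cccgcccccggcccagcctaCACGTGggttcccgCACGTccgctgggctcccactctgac
Pdk1, chr2:71873119-71873178 (+): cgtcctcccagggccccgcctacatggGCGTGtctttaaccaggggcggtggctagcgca
Bnip3, chr7:138909582-138909641 (-): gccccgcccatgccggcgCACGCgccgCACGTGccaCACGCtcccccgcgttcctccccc
Ankrd37, chr8:45999972-46000031 (-): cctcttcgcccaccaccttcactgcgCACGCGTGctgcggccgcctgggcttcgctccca
Egln3, chr12:54204065-54204124 (-): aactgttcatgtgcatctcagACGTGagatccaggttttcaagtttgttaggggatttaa
Adm, chr7:110627558-110627617 (+): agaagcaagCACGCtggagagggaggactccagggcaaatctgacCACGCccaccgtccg

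A core was present upstream of 8 of 9 members, and 6 members held 2 or more matches, where a palindromic CACGTG counts on both strands. Ldha and Bnip3 held 5 matches each and Ankrd37 held 4, whereas Pdk1 and Egln3 held 1 each. Among 27025 gene symbols with a promoter in the same table, 38.6% held a core, 16.5% held ACGTG and 16.8% held 2 or more matches. The more specific ACGTG was found upstream of 6 members, all but Vegfa, Pdk1 and Adm. The GC content of the 9 windows ranged from 50.8% to 72.4%, against a median of 52.0% over all symbols, and the part of GC content in these matches was not tested. The Vegfa window held no core, which says only that these letters are not within this stretch.

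The deposited table gives a mean normalized count per group and not the libraries themselves. Because each library contributes whole reads divided by its own size factor, the 3 read counts behind a mean could be recovered for 26348 genes (98.1%), all 9 members among them, and between 20566011 and 24974510 reads per library lie on these genes. Their genotype is known but not their sample number, so they are called a, b and c in each group, in order of falling size factor. Lmx1b itself had normalized counts of 1257, 1401 and 1455 in cKO libraries a, b and c and of 1368, 1352 and 1474 in control libraries a, b and c, so the total over the gene does not separate the genotypes. The exons removed from the fl allele are not given in the sources used here, and the total is therefore no check of the labels. En1 and En2, which mark the midbrain, were detected in all libraries, En1 at 940 to 1147 in the cKO and 1277 to 1540 in the control and En2 at 1413 to 1889 and 2012 to 2440, and Th, the rate-limiting enzyme of dopamine synthesis, at 733 to 976. Library cKO c stood apart, since 10 bone and mesenchyme markers summed to 14493 normalized counts in it, against 2475 in cKO a and 807 to 937 in cKO b and the control libraries. Col1a1, the main bone collagen, had 6097 normalized counts in cKO c, 532 in cKO a and 10.6 to 14.8 in the other 4, so that both cKO c and, at a lower level, cKO a held mesenchymal RNA. Since cKO c had most of it, the members are given below also without it.

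No difference between Lmx1b cKO and control midbrains was detected for any of the 9 members. For the abundant members the limits on a difference were narrow, but they hold for RNA of the whole dissection. Cells that do not express Pitx3 kept Lmx1b, and their RNA would dilute a change confined to the Pitx3-expressing cells. In the fit over 16673 genes (limma with voom weights), 0 of 9 members had an unadjusted p-value under 0.05, where 466 genes (2.79%) did, 197 higher in the cKO (1.18%) and 269 lower (1.61%). After Benjamini-Hochberg adjustment 0 members and 0 genes (0%) passed 0.05, and limma-trend, which called 477 genes at an unadjusted p-value under 0.05, likewise gave 0 members before and 0 genes after adjustment. The cKO and control libraries overlapped for all 9 members, whereas for 1279 genes (7.67%) they did not. The log2 fold changes (cKO over control) ran from -0.22 in Egln3 to 0.49 in Adm, 3 positive and 6 negative, with a median of -0.02 beside -0.00 over all genes tested. The adjusted p-value of limma was 1.00 for each member. Since the dissection holds many cell types, fewer cells of a type and less RNA per cell cannot be told apart in any of these values.

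Slc2a1 (ENSMUSG00000028645, chr4:119108711-119137983) encodes GLUT1, the glucose transporter of the blood-brain barrier and of most proliferating cells. The 3 cKO libraries gave 1997, 2316 and 2132 normalized counts in the order a, b, c, the 3 controls 2046, 2232 and 2268. The control values lay inside the range of the cKO values, with the lowest and the highest library both among the cKO. The means were 2149 ± 160 and 2182 ± 119 (SD, n = 3 each), a log2 fold change of -0.02 (SE 0.07), and the 95% interval allowed a ratio of 0.89 to 1.09.

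Pgk1 (ENSMUSG00000062070, chrX:106187100-106203699), phosphoglycerate kinase, carries out the first ATP-yielding step of glycolysis. It had 620, 677 and 669 normalized counts under the cKO genotype, with 701, 631 and 844 for the controls. Control c was the high value, and without it the log2 fold change moved from -0.13 (SE 0.11) to -0.03, whereas without control b, the lowest control, it was -0.22. Of its transcript sequence, 53.9% of 50-base stretches also occur in other annotated genes, mostly processed copies such as Pgk1-rs7, so that its reads could be lost or shared in counting and its level is uncertain.

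Ldha (ENSMUSG00000063229, chr7:46841475-46855627), the lactate dehydrogenase subunit that favours lactate formation, was the most abundant member. It had 2871, 3509 and 3419 normalized counts in the cKO and 3277, 3443 and 3343 in the control. All 3 control values fell between cKO a and cKO b, and the cKO libraries were more scattered (SD 346) than the control libraries (SD 83.4). The log2 fold change was -0.05 (SE 0.07), with an interval for the ratio from 0.87 to 1.08, and 9.26% of its 50-base stretches also occur in other genes (328 in all), among them the pseudogene Ldha-ps2.

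Pdk1 (ENSMUSG00000006494, chr2:71873224-71903858) encodes a pyruvate dehydrogenase kinase, which inhibits pyruvate dehydrogenase and so holds back the conversion of pyruvate to acetyl-CoA in mitochondria. It was the least variable member, with 1376, 1342 and 1306 normalized counts in the cKO and 1316, 1467 and 1331 in the control. Its highest library exceeded its lowest by a factor of 1.12, and the log2 fold change was -0.03 (SE 0.07; ratio 0.88 to 1.09). None of its 50-base stretches occurs in another gene.

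Bnip3 (ENSMUSG00000078566, chr7:138890836-138909519), a mitochondrial outer membrane protein that triggers removal of mitochondria, came closest to a difference. It had 664, 638 and 571 normalized counts under the cKO genotype, with 585, 451 and 574 for the controls. The cKO libraries a and b were above all control libraries, while cKO c was slightly below control a and control c. The means were 625 ± 47.9 and 536 ± 74.5 (SD, n = 3 each), a log2 fold change of 0.23 (SE 0.12), and an exact permutation test of the counts gave p = 0.3 (two-sided), where 3 against 3 libraries cannot go below 0.1. Leaving out cKO c, the library with most mesenchymal RNA, gave a log2 fold change of 0.29 and groups that no longer overlapped (limma adjusted p = 1.00; exact permutation p = 0.2, the smallest that 2 against 3 libraries allow). Leaving out control b, the lowest library, gave 0.11 (limma adjusted p = 1.00; exact permutation p = 0.6). Of its 50-base stretches 47.2% are shared with other genes, among them Gm45507 on the opposite strand, and whether the counting used the strand is not given in the sources used here.

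Ankrd37 (ENSMUSG00000050914, chr8:45996902-46005707) encodes a small ankyrin repeat protein that is known mainly as a HIF target. Its counts were 256, 254 and 219 in the cKO and 270, 193 and 215 in the control, with both the highest and the lowest library in the control group. The log2 fold change was 0.11 (SE 0.16), and without control b it was -0.00. Its exons overlap Lrp2bp and Ufsp2 on the opposite strand, and 17.0% of its 50-base stretches are shared with them.

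Egln3 (ENSMUSG00000035105, chr12:54178981-54203860) encodes PHD3, the oxygen-sensing prolyl hydroxylase that HIF itself induces and that feeds back on the pathway. It had 240, 351 and 289 normalized counts in the cKO and 324, 304 and 393 in the control. The lowest library was cKO a and the highest control c, yet cKO b lay above controls a and b. With means of 293 ± 55.6 and 340 ± 47.0 (SD, n = 3 each) the log2 fold change was -0.22 (SE 0.16; exact permutation p = 0.4, two-sided). Without cKO a it was -0.08 (exact permutation p = 0.8). Without cKO b it was -0.36 and the groups no longer overlapped (exact permutation p = 0.2, the smallest that 2 against 3 libraries allow).

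Vegfa (ENSMUSG00000023951, chr17:46016993-46032369), the growth factor that draws blood vessels into the neural tube, had 2539, 3226 and 2760 normalized counts in the cKO and 2792, 2919 and 2794 in the control. The control libraries were within a narrow band and the cKO libraries lay below, above and just under it. Group means were nearly equal, at 2842 ± 351 and 2835 ± 72.8 (SD, n = 3 each), and the log2 fold change was -0.01 (SE 0.08; ratio 0.88 to 1.12).

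Adm (ENSMUSG00000030790, chr7:110627661-110629820), the precursor of the vasodilator peptide adrenomedullin, was barely detected. It was covered by 22, 22 and 30 reads in cKO libraries a, b and c and by 24, 25 and 9 reads in control libraries a, b and c. Control c was the lowest library and cKO c the highest. The log2 fold change was 0.49 (SE 0.44) over all libraries, 0.14 without control c and 0.32 without cKO c. At this depth the interval for the ratio ran from 0.72 to 2.75, so that the data leave room for a fall as well as for more than a 2-fold rise.

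**Figure D1:**
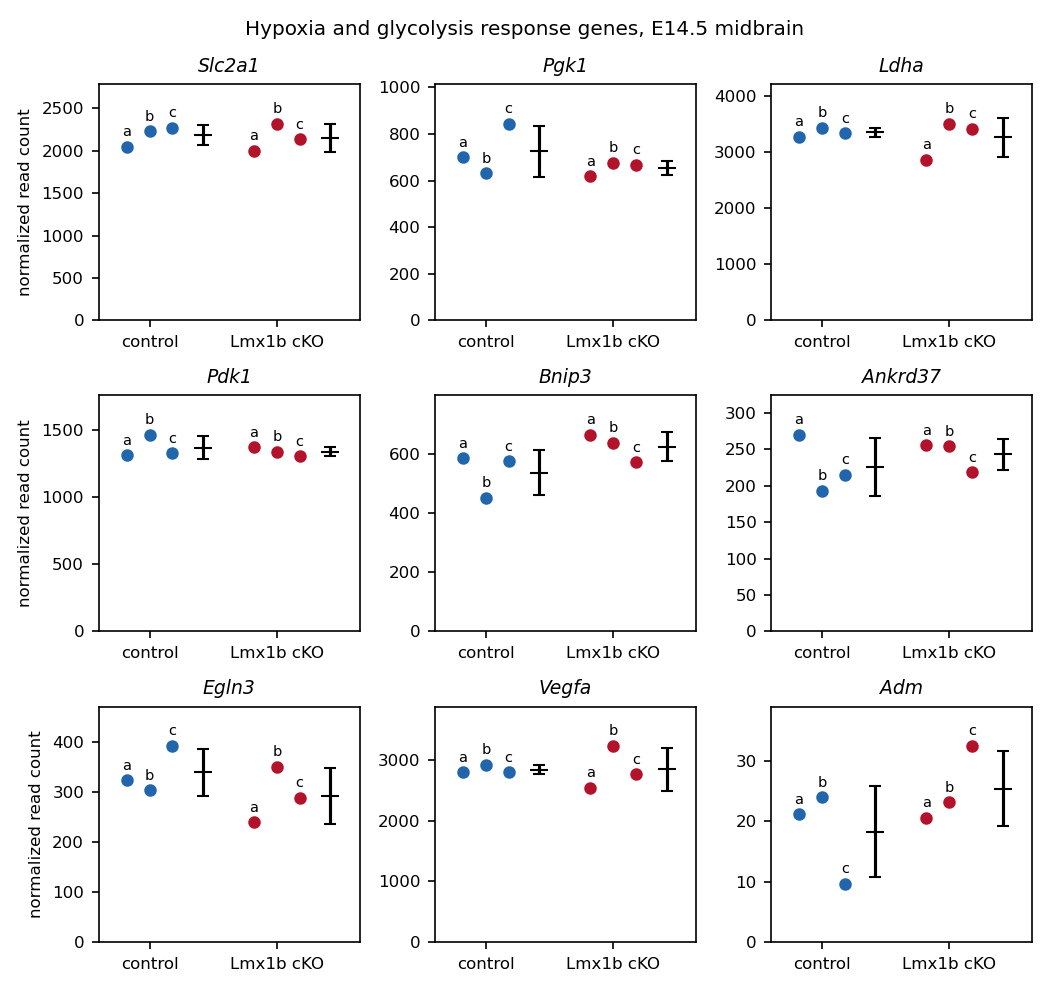
Normalized read count (vertical axes, each starting at 0) of the 9 genes in control (blue) and Lmx1b cKO (red) libraries a, b and c, with group means and SD (bars, n = 3). The groups overlap for every gene, the spread of Vegfa and Ldha is wider among the cKO libraries, and Adm stays at 9.72 to 32.5.

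The 95% intervals of the log2 fold changes set how large a difference these libraries could have left unseen in RNA of the whole dissection. They set no limit for the Pitx3-expressing cells alone. For 4 members, Slc2a1, Ldha, Pdk1 and Vegfa, the interval lay within 1.25-fold in either direction. It lay within 1.5-fold for 8 members, the exception being Adm. The 4 genes with the tight intervals were also those with more than 1000 normalized counts, while the intervals of Pgk1, Bnip3, Ankrd37 and Egln3, at 226 to 725 normalized counts per group, were wider.

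**Figure D2:**
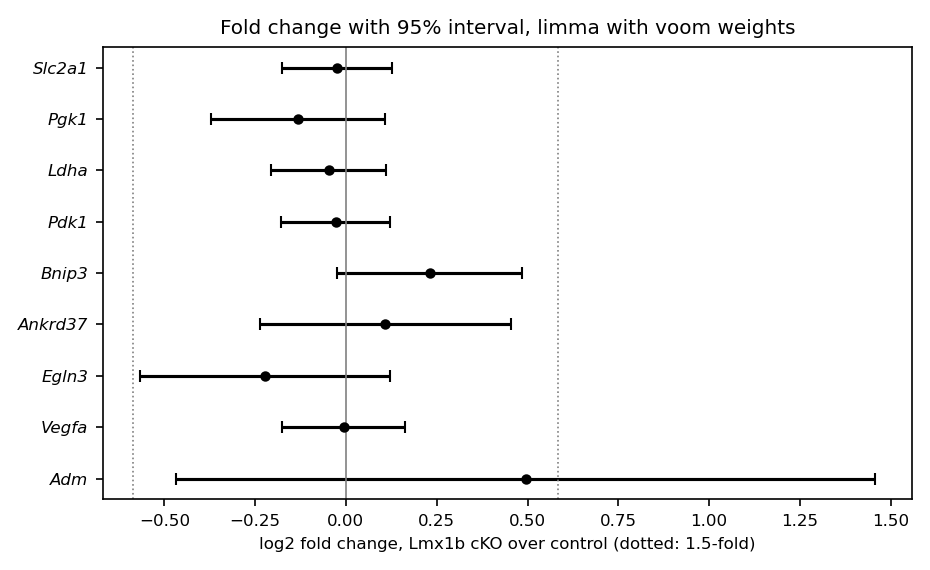
Log2 fold change of each gene (cKO over control, points) with its 95% interval from limma (lines, n = 3 per group). All 9 intervals include 0, and they run from the narrowest in Pdk1 (-0.18 to 0.12) to the widest in Adm (-0.47 to 1.46).

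In order to compare levels between genes, normalized counts were divided by the exon length of each gene in kilobases. This length covers all annotated exons of a gene and can exceed that of the transcripts in use. The order per kilobase therefore depends also on the annotation. On this scale Ldha was highest at 1000 (867 to 1060 over the 6 libraries), followed by Vegfa at 662 and Slc2a1 at 618, whose ranges overlapped each other but not that of Ldha. Pgk1 at 308 and Bnip3 at 256 formed the next level, with overlapping ranges. Pdk1 at 174, Ankrd37 at 152 and Egln3 at 119 followed, and each of them overlapped its neighbour. Adm, at 13.5 (6.00 to 20.1), was well below all others. Among the recovered enzymes of the same route, Aldoa (2196), Ldhb (2063), Tpi1 (1796) and Pfkm (1474) were above Ldha per kilobase. Pkm, whose libraries were not recovered, had 3650 per kilobase from the authors' means. Ldhb, the subunit typical of oxidative cells, and Ldha had nearly equal normalized counts, 3238 and 3310 over the 6 libraries, and differ per kilobase through the exon lengths of 1570 and 3310 bases, with 21.0% of the 50-base stretches of Ldhb shared with Gm5514. Levels of genes that share much sequence are uncertain in this order, which touches Pgk1 and Bnip3 (53.9% and 47.2% of 50-base stretches shared) as well as Pkm (25.8%) and Gapdh (25.1%, at 59.7 per kilobase).

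**Figure D3:**
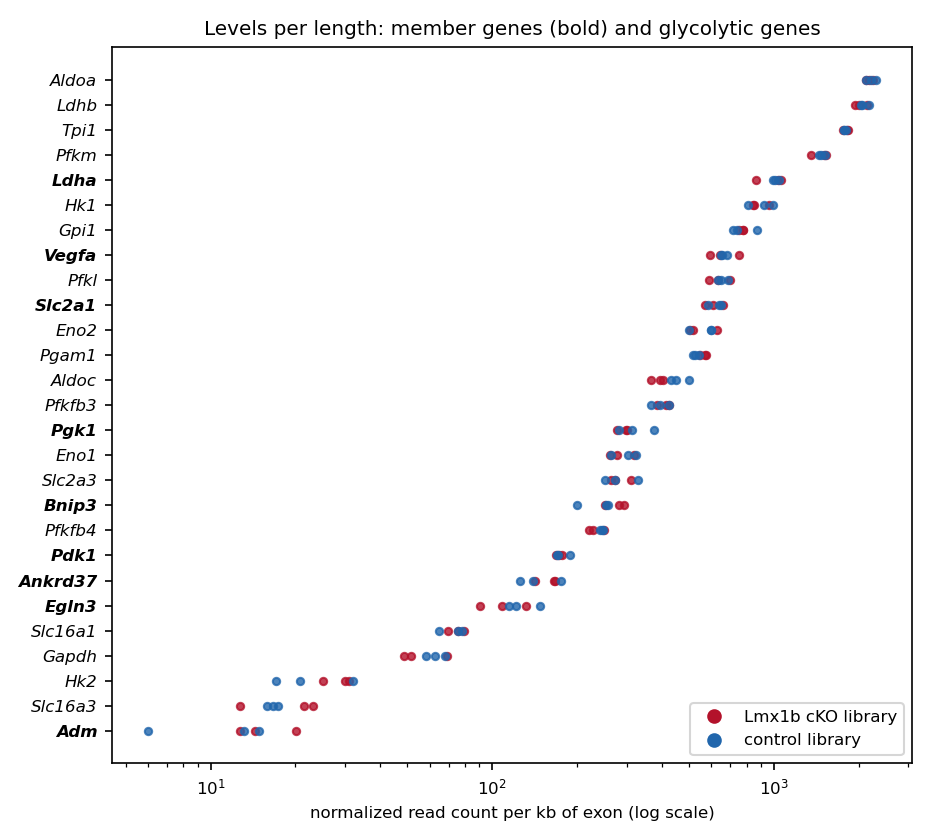
Normalized read count per kilobase of exon (log axis) of the 9 genes (bold) and of the recovered glycolytic genes, ordered by mean, with a point for each of the 6 libraries (red cKO, blue control). The 9 genes run from 1000 in Ldha to 13.5 in Adm, and the genotypes overlap at each of them.

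The spread within a genotype was larger than the difference between genotypes for most members. The median SD within groups on the log2 scale was 0.16 for the members, beside a median size of the log2 fold change of 0.108, and the same values over all genes tested were 0.13 and 0.070. Bnip3 was the exception, with an SD of 0.17 and a log2 fold change of 0.23. In all, 7 members varied more than the median gene of like level (within 1.5-fold in mean count), Vegfa more than 89.4% and Ldha more than 87.5% of such genes. Pdk1 went the other way, at 27.9%. Summed over the 9 genes, the lowest and the highest library were both cKO, a with 10584 and b with 12336 normalized counts. The group sums of 11440 ± 877 and 11589 ± 228 (SD, n = 3 each) gave an exact permutation p of 0.8 (two-sided).

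The order of the libraries was partly shared between members. In cKO a, 5 members had their lowest value (Slc2a1, Pgk1, Ldha, Egln3 and Vegfa), where 19.1% of all genes tested were lowest in that library, and Bnip3 had its highest. In cKO b, Slc2a1, Ldha and Vegfa had their highest value. These 3 members were thus lowest in cKO a and highest in cKO b, an order held by 4.19% of all genes tested. Bnip3 and Ankrd37 had their lowest value in control b, and Pgk1 and Egln3 their highest in control c. The 9 genes share libraries and depth, so these orders are a description of 6 libraries.

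Other cell populations in the dissections also differed between these libraries. Averaged over 9 erythroid markers, centred log2 levels were -0.04, 0.25 and 0.19 in cKO a, b and c and -0.32, -0.28 and 0.20 in control a, b and c, so that cKO b was high for blood as it was for Vegfa, Slc2a1 and Ldha, but control c was too. Summed, these markers gave 13881 to 18146 normalized counts in the cKO and 12579 to 17177 in the control. Cycling progenitor markers (8 genes) were at -0.18, 0.17 and -0.09 in the cKO and at 0.48, -0.35 and -0.04 in the control, with sums of 3764 to 5111 and 3475 to 6323. Endothelial and pericyte markers (10 genes) stayed within -0.05 to 0.05, with sums of 9095 to 9333 in the cKO and 8708 to 9095 in the control, and all genes of the 3 lists passed the minimum mean of 10. Their part in the order of the members was not tested. Of the libraries with mesenchymal RNA, cKO c had the highest value of Adm and the lowest of Pdk1, and cKO a, with less of it, was the library with the lowest value of 5 members and the highest of Bnip3. The part of this RNA in the members' values was not tested. Without cKO c the median log2 fold change of the members was -0.01, and the single values were 0.009 in Vegfa, -0.02 in Slc2a1, -0.01 in Pdk1, -0.08 in Ldha, -0.15 in Pgk1, 0.29 in Bnip3, 0.18 in Ankrd37, -0.23 in Egln3 and 0.32 in Adm.

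**Figure D4:**
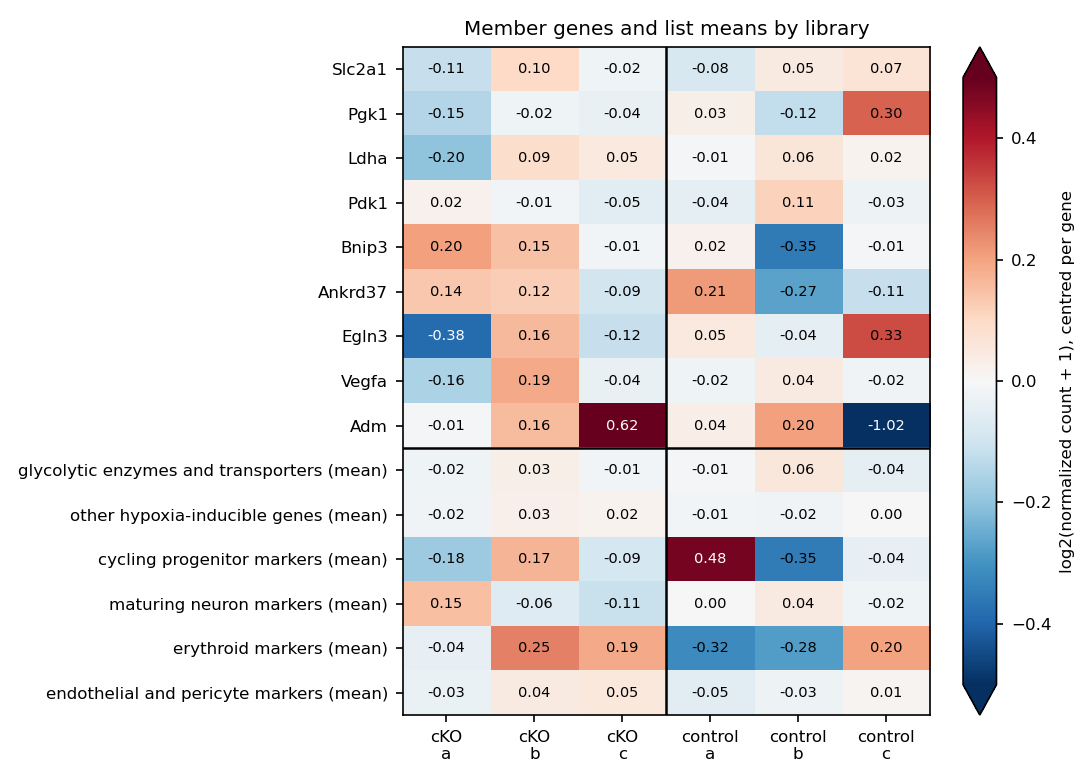
Log2(normalized count + 1) of the 9 genes and the mean over 6 gene lists, centred per gene over the 6 libraries (colour and number, with full colour at 0.5 above or below the mean), in cKO and control libraries a to c. Vegfa, Slc2a1 and Ldha are blue in cKO a and red in cKO b, and Adm exceeds the colour range in cKO c and control c.

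Among the genes whose profile over the 6 libraries came nearest to the mean profile of the members were Rcc2, Mau2, Ogfod1 and Ehmt1, with root mean square differences of 0.012 to 0.013 on the log2 scale over 12433 genes searched, where the mean profile itself had a size of 0.060. For single members, the nearest gene was Fbxl6 for Vegfa (0.017), Dcbld2 for Slc2a1 (0.010), Scml4 for Pdk1 (0.013), Rpl18-ps2 for Ldha (0.015) and Plpp2 for Pgk1 (0.034). It was Trmt11 for Bnip3 (0.041), Zfp991 for Ankrd37 (0.042), Cfap100 for Egln3 (0.056) and 3110001I22Rik for Adm (0.236). The likeness rests on 6 libraries that the genes share.

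The regulators upstream of the members and their partner genes were examined with the same fit. Of 68 genes in 5 lists, 64 were tested, and 2 had an unadjusted p-value under 0.05 (3.12%, beside 2.79% of all genes), 1 higher and 1 lower, with 0 after adjustment. Their median log2 fold change was -0.01, and the interval lay within 1.25-fold for 42 of them and within 2-fold for 61.

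Among oxygen sensors and HIF subunits 8 of 9 genes were tested, 0 with an unadjusted p-value under 0.05, with log2 fold changes from -0.04 in Egln2 to 0.18 in Epas1. Hif1a, the oxygen-labile subunit of most cells, had a mean of 5681 in the cKO and 5608 in the control (log2 fold change 0.02). Epas1, the α subunit typical of endothelial cells, had 1071, 964 and 998 normalized counts in the cKO and 802, 938 and 968 in the control (limma adjusted p = 1.00; exact permutation p = 0.2, two-sided).

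Of 20 other glycolytic enzymes and transporters 18 were tested, and Aldoc alone had an unadjusted p-value under 0.05. Aldoc, the brain isoform of aldolase and a gene of radial glia and astrocytes, had 1283, 1193 and 1319 normalized counts in the cKO and 1468, 1627 and 1404 in the control. The groups did not overlap, and the log2 fold change was -0.25 (SE 0.08; limma adjusted p = 1.00; exact permutation p = 0.1, two-sided). Its unadjusted p-value stayed under 0.05 in all 13 alternative settings, with log2 fold changes from -0.29 to -0.19. The groups were also apart for Pgam1, phosphoglycerate mutase, in the other direction, with 1134, 1085 and 1125 normalized counts in the cKO and 1039, 1023 and 1074 in the control (log2 fold change 0.09, SE 0.07; limma adjusted p = 1.00; exact permutation p = 0.1, two-sided). Of its 50-base stretches 36.2% are shared. Hk2, the inducible hexokinase, had the highest value of the list (0.31; limma adjusted p = 1.00; exact permutation p = 0.4, two-sided).

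Of 20 other hypoxia-inducible genes 19 were tested, and Loxl2, a collagen cross-linking oxidase, was the only one with an unadjusted p-value under 0.05. Loxl2 had 67.5, 66.6 and 103 normalized counts in the cKO and 54.9, 40.3 and 44.3 in the control (log2 fold change 0.72, SE 0.28; limma adjusted p = 1.00; exact permutation p = 0.1, two-sided). Its highest value was in cKO c, the library with most mesenchymal RNA, without which the log2 fold change was 0.53 and the unadjusted p-value no longer under 0.05. The same held without control b (0.62) and without control c (0.69). Of the more abundant genes in this list, P4ha1, a collagen prolyl hydroxylase, was highest (0.13) and Ndrg1 lowest (-0.20).

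The receptors for Vegfa and adrenomedullin (8 of 8 tested) ranged from -0.05 in Ramp3 to 0.16 in Ramp2, and 11 genes of mitochondrial pyruvate entry gave, above a mean of 100, -0.17 in Pdk2 to 0.10 in Pdhb. Neither list had a gene with an unadjusted p-value under 0.05. Endothelial and pericyte markers, which include the cells that receive Vegfa, had a median log2 fold change of 0.05 over 10 genes with 0 called.

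**Figure D5:**
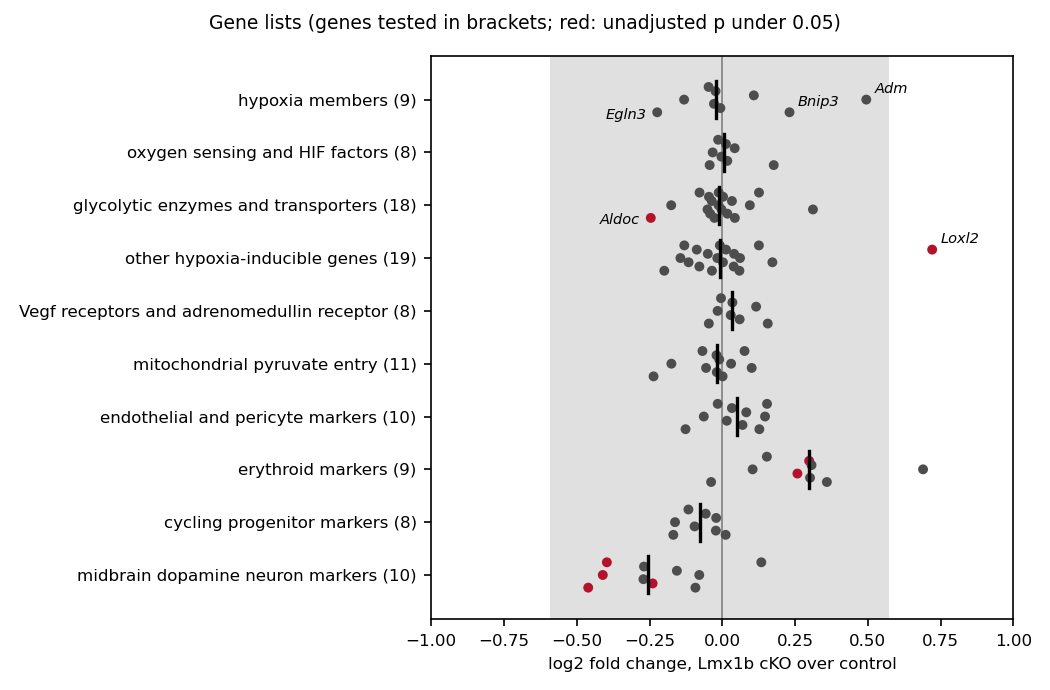
Log2 fold change (cKO over control) of each tested gene, with the list median (bar) and the central 95% of all genes tested (grey, -0.59 to 0.57). Drawn are the members, the 5 pathway lists and the endothelial and pericyte, erythroid, cycling progenitor and midbrain dopamine neuron markers. The other marker lists, among them bone and mesenchyme, are not drawn. The 9 members and the 5 pathway lists centre near 0, and Aldoc and Loxl2 are the 2 red points among the pathway lists.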

How the data were processed

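RNA-seq of 3 cKO and 3 control libraries was used. The authors deposited 1 table with mean signal columns, which are read counts divided by a size factor per library and averaged over all libraries and over each group. Its ratio, log2 ratio and p-value columns hold the authors' own comparison and were not used. The submitters' processing notes name TopHat 1.0.14, Bowtie2 2.1.0, HTSeq 0.6.1p1, DESeq 1.10.1 and GRCm38.p4. Lines naming no gene (3) held 31.8% of the mean counts and were left out.

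Whole reads per library were recovered from the deposited means (up to 30000 reads per group). A single answer in both groups was found for 26348 of 26852 genes, which hold 69.2% of the mean counts on genes. An answer was also found for 4 of 1000 decoys, and recomputed size factors differed by at most 0.14%. Pkm, Pfkp and Arnt2 were among the genes not recovered. Genes whose normalized counts averaged 10 or more were fitted with limma 3.58.1 (R 4.3.3, voom weights, recovered size factors, genotype as term), which was tested on simulated data, and p-values were adjusted by the Benjamini-Hochberg method. Levels of single genes were compared by exact permutation tests. P-values measure the spread between these libraries only.

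The 14 gene lists, that of the members among them, and the tests were chosen with earlier results of these data known. Named are all members, list genes with an unadjusted p-value under 0.05, the highest and lowest log2 fold change of each list among genes with a mean of at least 100, and the genes nearest in profile (5 for the mean profile, of which 1 is not reported here), while Hif1a, Pgam1, Runx2 and the genes named for their level per kilobase were chosen after their values were seen. Positions follow GENCODE on GRCm38 and promoters RefSeq on GRCm38.p6, with 9 of 9 members matched. The recovery ran in Python 3.11.15 (numba 0.67.0, numpy 2.4.6), summaries in pandas 2.3.3 and scipy 1.17.1, and plots in matplotlib 3.10.9.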

Additional observations from a re-analysis of the deposited data

How the results depend on the processing

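No paired analysis was possible because the recovered libraries carry no number. The headers of the deposited table number the libraries 1 to 3 in both groups, so that a pairing may exist, but the sample labels number across both groups and no number can be tied to a recovered library. Leaving out 1 library at a time turned the sign of 5 members, whose log2 fold changes then ranged from -0.10 to 0.075 in Vegfa, -0.078 to 0.031 in Slc2a1, -0.061 to 0.022 in Pdk1, -0.10 to 0.047 in Ldha and -0.003 to 0.26 in Ankrd37, and the median of the members from -0.078 to 0.047. Members with an unadjusted p-value under 0.05 numbered 0 to 1 without a library, Bnip3 without cKO c and without control a (0.31; limma adjusted p = 0.994; exact permutation p = 0.4). Pathway list genes then numbered 1 to 3 and all genes 333 to 635. After adjustment 0 to 4 genes passed, the 4 without control a being Ddx3y, Gm11702, Kdm5d and Uty. Ddx3y, Kdm5d and Uty are genes of the Y chromosome. The sex of the pooled embryos was not examined, and its part in these calls was not tested. A minimum mean of 100 left 1 pathway list gene and 303 genes in all, and testing all recovered genes gave 972, since fewer or more genes were tested. No other scaling, filter or weighting turned the sign of a member or gave a member an unadjusted p-value under 0.05, though Adm was not tested at minimum means of 50 and 100. Depth limits Adm, at 9 to 30 reads.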

Other observations

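Of 10 midbrain dopamine neuron markers 4 had an unadjusted limma p-value under 0.05 and were lower in the cKO, Pitx3 (log2 fold change -0.41), Ddc (-0.24), En1 (-0.40) and En2 (-0.46), 0 after adjustment, and Slc18a2 had the highest value (0.13). En1 and En2 had an unadjusted p-value under 0.05 in 13 of 13 alternative settings, but Pitx3 and Ddc in 9 of 13, since Pitx3 was at -0.24 without cKO a and lost the call also without control a, b or c, and Ddc was at -0.11 without control c and lost it also without cKO a, b or c. Of 9 erythroid markers Hba-a1 (0.26) and Hbb-bs (0.30) were higher at an unadjusted p-value under 0.05, with Hba-x highest (0.36) and Hbb-bt lowest (-0.04). Both calls were lost without cKO c (0.16 and 0.20) and without control a (0.14 and 0.15), that of Hba-a1 also without cKO b (0.24) and that of Hbb-bs also without control b (0.31), whereas without cKO a both were kept and 4 erythroid markers had an unadjusted p-value under 0.05. All 10 bone and mesenchyme markers had positive values, from 0.39 in Postn to 5.00 in Col1a1 above a mean of 100, and Col3a1 (1.84) had an unadjusted p-value under 0.05. Col1a1 had 532, 14.8 and 6097 normalized counts in cKO a, b and c and 10.6 to 11.5 in the control libraries, Runx2 had 16.9, 15.8 and 84.4 beside 28.3, 9.61 and 19.4, and Col3a1 was at 1.03 without cKO c, where its unadjusted p-value stayed under 0.05. Bone and mesenchyme markers with an unadjusted p-value under 0.05 numbered 2 without cKO c, 1 without cKO a, 7 without cKO b and 0 without control a, b or c, left out singly. The call of Col3a1 was lost without control a, b or c (1.75 to 1.90). The remaining lists had 0 genes at this threshold over all libraries, but 2 maturing neuron markers (4 of 9 tested) passed it without cKO a and 1 dissociation or immediate early gene without control b. Their highest and lowest values above a mean of 100 were 0.15 in Tek and -0.13 in Emcn for endothelial and pericyte markers, 0.16 in C1qb and -0.07 in Csf1r for microglia, and 0.01 in Top2a and -0.17 in Birc5 for cycling progenitors. They were 0.06 in Snap25 and -0.08 in Nefl for maturing neurons and 0.28 in Hspa1b and -0.08 in Hspa1a for dissociation and immediate early genes.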
